A study of Mus musculus with 6 samples.

Results

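Runx2 occupancy was described at 7 genes of bone morphogenetic protein (BMP) and transforming growth factor-β (TGF-β) signalling: the ligand genes Bmp2, Bmp4, Bmp6 and Tgfb2, the receptor gene Bmpr1b, and the inhibitor genes Smad6 and Nog. Occupancy was measured by chromatin immunoprecipitation with sequencing (ChIP-seq), and each of the 2 deposited lists holds 1000 windows, numbered from 1 and spanning 100 bp from start to end. A window belonged to a gene when its list gave that gene as the nearest, or when it overlapped such a window of the other list by at least 1 bp. By this rule 10 of the 2000 windows belonged to the 7 genes: 9 windows carried the name of the gene, and 1 window was added by overlap. They lay at 7 sites, 1 for each gene, with 4 windows in normal culture and 6 in IL-1β. The genes were chosen by the nearest-gene names in these same lists, so that their presence is a description and not a finding.

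The study used primary chondrocytes of 5-day-old Runx2-FLAG mice on the C57BL/6 strain, in which the Runx2 protein made from its own locus carries a Biotin and FLAG tag at its C-terminal end, and DNA bound by the tagged protein was recovered with an anti-FLAG antibody. Cells were kept in normal culture (primary chondrocytes) or in culture with IL-1beta (inflamed chondrocytes), an inflammatory cytokine, and every group carried the tag. Each condition had 1 anti-FLAG library, 1 control IgG library and 1 input library, 6 libraries in 6 groups. The labels give the IL-1beta dose as 1 ng per µL, while the methods of the study give the same figure per mL. The peaks of each condition were called against the input of that condition.

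With 1 library per condition, no value below has a replicate error, no test between the conditions was possible, and each difference is one between these libraries. The lists hold no read counts, peak heights or false discovery rates, and the sequencing depth at each site is therefore unknown. The number of a window in its list is called its rank, with rank 1 taken as the highest. Since a list stops at 1000 windows, a site found in 1 list only may still have been called below rank 1000 in the other condition. The study reports many more raw peaks than this for each condition, and more in primary than in inflamed chondrocytes. The same rank therefore stands for a different share of the peaks in each list. A gene name in a list marks the nearest gene of a Runx2 window and not the expression of that gene. Of 21900 protein-coding genes, 4.11% were named in the normal-culture list and 4.04% in the IL-1β list. Of 7 chondrocyte marker genes, the normal-culture list named 5 (Col2a1, Sox9, Col11a1, Col9a1 and Comp). The IL-1β list named 4 (Acan, Sox9, Col11a1 and Matn1). Of the 4 skeletal muscle markers, none was named in either list. In each list 1 of 4 markers was named for macrophages and leukocytes (Sfpi1), 1 of 4 for endothelium (Pecam1 in normal culture, Emcn in IL-1β) and 1 of 4 for fibroblasts and perichondrium (Thy1 in normal culture, Col3a1 in IL-1β). In normal culture Sfpi1 ranked 20, Thy1 81 and Pecam1 196, all higher than the chondrocyte markers (398 for Col2a1 to 859 for Comp). In IL-1β Sfpi1 ranked 56, Col3a1 594 and Emcn 769, and the chondrocyte markers ranked 212 (Acan) to 918 (Matn1). The part of other cell types in the lists was not tested.

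BMPs and TGF-βs are secreted dimers that bring together type I and type II receptor kinases on the cell surface. The type I receptor phosphorylates Smad proteins, which enter the nucleus and bind DNA together with partner transcription factors, among them Runx2. In the growth plate BMP signals drive chondrocytes to proliferate and mature, while TGF-β signals hold back their hypertrophy. The pathway is restrained outside the cell by antagonists such as Noggin, which bind the ligand, and inside it by the inhibitory Smads.

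The reference sequences under the windows of 6 sites are shown as the forward strand of mm9, the genome build of the lists. They show which motifs the windows hold and do not measure binding. Capitals mark the Runx motif, searched as TGTGGT and TGCGGT on both strands, so that a match on the reverse strand is read as ACCACA or ACCGCA. Where both lists hold a window of the site, the stretch covers both windows. At Bmp6 the stretch begins with a normal-culture window that the rule does not take, since it ends 16 bp before the IL-1β window.
Bmp2, chr2:133492178-133492278: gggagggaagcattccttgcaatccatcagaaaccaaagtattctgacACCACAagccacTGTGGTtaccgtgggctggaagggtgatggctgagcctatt
Bmp4, chr14:46613476-46613603: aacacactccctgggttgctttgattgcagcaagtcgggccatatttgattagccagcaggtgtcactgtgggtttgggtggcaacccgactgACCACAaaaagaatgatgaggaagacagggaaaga
Bmp6, chr13:38412278-38412494: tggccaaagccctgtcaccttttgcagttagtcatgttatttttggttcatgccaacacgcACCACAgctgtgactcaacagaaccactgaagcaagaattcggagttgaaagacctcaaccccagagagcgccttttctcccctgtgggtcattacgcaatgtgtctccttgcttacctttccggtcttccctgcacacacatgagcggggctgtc
Bmpr1b, chr3:141604112-141604224: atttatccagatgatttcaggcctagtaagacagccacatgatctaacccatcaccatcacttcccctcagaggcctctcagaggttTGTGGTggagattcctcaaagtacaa
Smad6, chr9:63744314-63744438: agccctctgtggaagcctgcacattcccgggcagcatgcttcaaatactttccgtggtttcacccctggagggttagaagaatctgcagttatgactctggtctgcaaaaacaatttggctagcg
Nog, chr11:89068208-89068308: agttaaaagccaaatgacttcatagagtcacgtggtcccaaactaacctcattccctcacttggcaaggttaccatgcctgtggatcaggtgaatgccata

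At 3 of the 7 sites the Runx2 window was present in both lists: those of Bmp4, Bmpr1b and Smad6. Bmp2 had a window in normal culture alone, and Tgfb2, Bmp6 and Nog had theirs in IL-1β alone. The shared share was 42.9% of sites (Wilson 95% interval 15.8% to 75.0%, covering counting error only), and over all 1449 sites of the 2 lists together it was 38.0%. The 7 sites were chosen by names in these lists and are not a sample of all sites. A difference between the 2 shares was therefore not tested. Counted by window, 3 of the 4 windows in normal culture and 3 of the 6 in IL-1β overlapped one of the other list. The IL-1β window of the Bmp4 site was taken because of its overlap, so that its sharing was fixed by the rule. Of all windows of either list, 55.1% overlapped one of the other. The Bmp6 site stood on the border of the rule, because the centre of a normal-culture window lay 116 bp from the centre of its IL-1β window. When windows with centres within 200 bp of each other were counted as 1 site, 4 of the 7 sites were in both lists. No window of the 7 genes ranked among the 200 highest of its list.

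**Figure D1:**
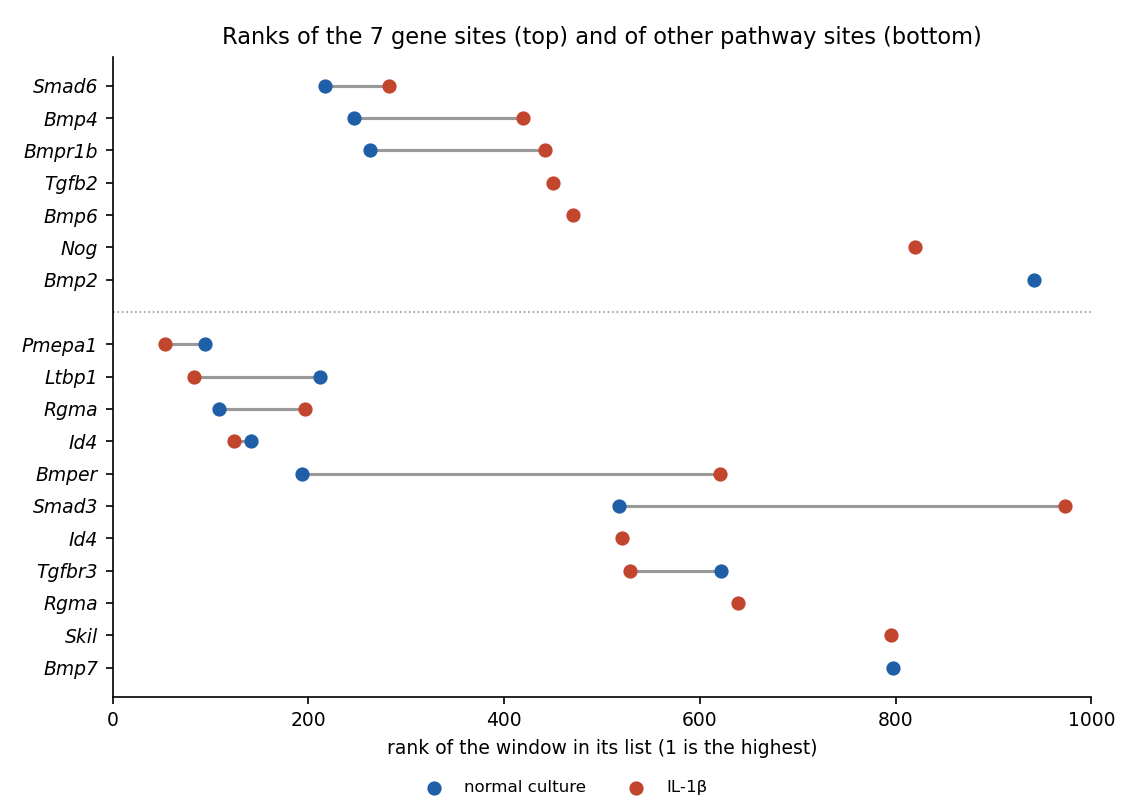
Rank of each Runx2 window in the normal-culture list (blue) and in the IL-1β list (red) for the 7 genes (top) and for the other pathway genes that either list names (bottom). The x axis is the rank in the list, without unit, and a grey line joins windows that overlap. The sites of Smad6, Bmp4 and Bmpr1b are joined and lie further right in IL-1β, while Tgfb2, Bmp6 and Nog have a red point only and Bmp2 a blue point only. The normal-culture window joined to Ltbp1 is named for Ttc27 in its list.

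All 3 shared sites had a later rank in IL-1β than in normal culture. The Smad6 site ranked 217 in normal culture and 282 in IL-1β, the Bmp4 site 247 and 419, and the Bmpr1b site 263 and 442. The shifts of 65, 172 and 179 ranks exceeded those of 65.2%, 80.4% and 81.1% of all shared windows. Of all 551 shared windows, 49.0% had a later rank in IL-1β, and the median shift was -2 ranks (quartiles -164 and 128). Among the 81 shared windows with normal-culture ranks above 200 and up to 300, where these sites lie, 48 were later in IL-1β, and their median IL-1β rank was 311 (quartiles 153 and 394). The shared sites whose pair of ranks came closest were those of Tcea3 for Bmp4 (246 and 394), Ddx18 for Bmpr1b (274 and 427) and, for Smad6, a site that the normal-culture list names Cdc123 and the IL-1β list Camk1d (228 and 285). The likeness is over 2 ranks only.

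The window centres of the shared sites stood 12 bp apart at Bmpr1b, 24 bp at Smad6 and 27 bp at Bmp4. Over all shared windows the median offset was 20 bp (quartiles 10 and 38 bp), and the 3 offsets lay between these quartiles.

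None of the 10 windows lay at a promoter. The share within 5 kb of the transcription start site (TSS) of the gene named was 21.9% of normal-culture windows and 27.6% of IL-1β windows, and 0 of 10 for the 7 genes. Over 100 kb from the TSS lay 5 of the 10 windows and 3 of the 7 sites, where 26.7% of the normal-culture windows and 25.3% of the IL-1β windows did. The sites of Bmp4 and Smad6 each count here with a window of both lists. The IL-1β window of the Bmp4 site was measured from Bmp4, while the list shares use the gene named, there Ddhd1 (336 kb away). The median distance over the 7 sites was 95.6 kb, beside medians of 39.6 and 30.1 kb for all windows of the normal-culture and IL-1β lists. By the deposited starts, 6 of 7 sites lay downstream of the TSS in the direction of transcription. Among these is Bmpr1b, which lay upstream of its nearest start in another annotation, as given below. Of the sites, 2 lay in an intron of the gene (Bmpr1b and Tgfb2) and 5 between genes. In GENCODE M1, an annotation of the same build, the nearest protein-coding start and the nearest gene body were those of the named gene at 6 of the 7 sites, with Bmp4 as the exception. The shares of all windows that lie downstream, in introns, between genes or nearest to the named gene are not given here. These counts are therefore not read as particular to the 7 genes.

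**Figure D2:**
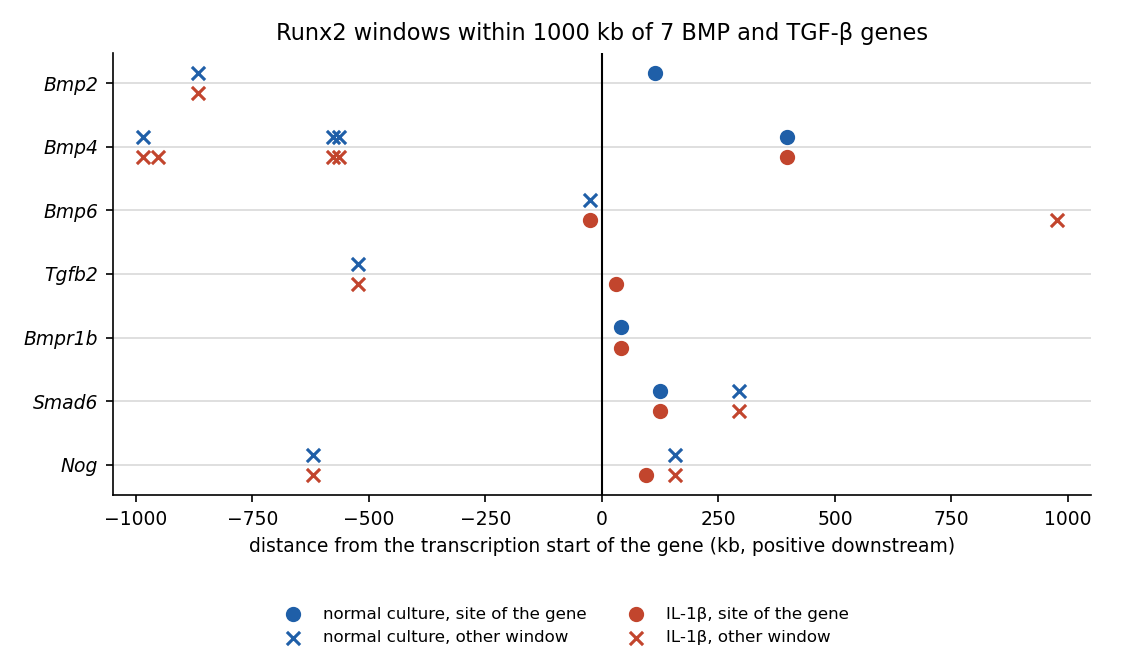
Runx2 windows within 1000 kb of the TSS of each of the 7 genes, in normal culture (blue) and in IL-1β (red). The x axis is the distance from the TSS in kb, positive in the direction of transcription, circles are the 10 windows of the genes and crosses are windows that the lists name for neighbouring genes. The circle of Bmp6 lies upstream of the start and all other circles lie downstream, and the blue cross of Bmp6 is the normal-culture window beside its IL-1β window.

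The 7 genes stand far from their neighbours. The stretch of genome nearer to a TSS of the gene than to that of any other protein-coding gene was 804 kb for Bmp2, 420 kb for Bmpr1b, 352 kb for Tgfb2, 190 kb for Bmp4, 182 kb for Smad6, 172 kb for Nog and 151 kb for Bmp6. The median was 190 kb over the 7 genes, 80.0 kb over the 87 other genes of the pathway list and 45.5 kb over 22380 protein-coding genes. A longer stretch collects more windows by the nearest-gene rule, and its part in the naming of these genes was not tested.

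Among the ligands, Bmp2 and Bmp4 encode closely related BMPs that act in cartilage and bone formation. The Bmp2 window (Entrez gene 12156) was the lowest-ranked of the 10, with rank 941 in normal culture. It lay at chr2:133492178-133492278, 113 kb downstream of the TSS and 104 kb past the end of the transcript, in a stretch of 934 kb without protein-coding genes between Bmp2 and Hao1. The nearest window of the IL-1β list was 980 kb away and was named for Chgb (rank 142), so that no IL-1β window stood in the same stretch. The sequence held 2 Runx motifs in opposite orientation, 6 bp apart, at 0.5 and 12.5 bp from the centre of the window.

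The Bmp4 site (Entrez gene 12159) had the longest distance of the 7. The normal-culture window at chr14:46613476-46613576 lay 397 kb downstream of the Bmp4 TSS, 390 kb past the end of the transcript. The overlapping IL-1β window at chr14:46613503-46613603 was named for Ddhd1, a phospholipase gene, whose start lay 336 kb away on the other side. By GENCODE M1, Ddhd1 was the nearest gene of both windows, the predicted gene Gm15217 lay between the site and Bmp4, and the stretch between Ddhd1 and Gm15217 was 721 kb long. The windows of 1 site thus bore different names in the 2 lists. This was so for 21.1% of all 551 shared windows. Both Bmp4 windows held the same Runx motif, at 45.5 bp from the centre in normal culture and 18.5 bp in IL-1β. No other window lay within 200 kb of the Bmp4 start. Between -984 and -565 kb from it the lists held 3 further windows in normal culture and 4 in IL-1β, named for Cgrrf1 and Lgals3 in normal culture and for Samd4, C130032J12Rik and Lgals3 in IL-1β.

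Bmp6 encodes a BMP that hypertrophic chondrocytes are known to make. Its IL-1β window (Entrez gene 12161) had rank 470 and lay at chr13:38412394-38412494, with its centre -25.1 kb from the TSS, between Snrnp48 and Bmp6. It was the only site upstream of its gene by the deposited starts, and its window held no Runx motif. The normal-culture window beside it, at chr13:38412278-38412378, had rank 942 and its centre lay -25.3 kb from the Bmp6 TSS. The list named that window for 6530403A03Rik, whose start was 116 kb away, while GENCODE M1 placed it nearest to Bmp6, at 24.7 kb. The neighbouring window held 1 Runx motif, 13.5 bp from its centre, and 1 match to the AP-1 motif TGANTCA. The Runx motif of the locus thus lay in the normal-culture window and outside the IL-1β window. By name, Bmp6 was found under IL-1β only. By position, a normal-culture window stood 16 bp away at a lower rank in its list.

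Tgfb2 encodes 1 of the TGF-β ligands. Its window (Entrez gene 21808) was found in IL-1β with rank 450, in intron 1 of the gene and 29.7 kb downstream of the TSS. The nearest normal-culture window was 553 kb away and was named for Gpatch2 (rank 695). It was the only TGF-β ligand gene with a window in either list.

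Bmpr1b encodes a type I BMP receptor known for its part in digit and cartilage formation. Its site (Entrez gene 12167) was the only one inside its gene in both lists. The windows, chr3:141604112-141604212 in normal culture and chr3:141604124-141604224 in IL-1β, lay in intron 2 and 41.1 and 41.0 kb downstream of the TSS of the deposited transcript. GENCODE M1 gives 5 starts for the gene, and against the nearest of them the same windows lay upstream, at -9.68 and -9.69 kb. The direction of the site relative to the start therefore depends on the transcript. Both windows held the same Runx motif, 39.5 and 27.5 bp from their centres. No other window of either list lay within 1000 kb of the Bmpr1b start.

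Among the inhibitors, Smad6 encodes an inhibitory Smad that acts inside the cell and chiefly on BMP signals. Its site (Entrez gene 17130) had the highest ranks of the 7 genes in both lists. The windows, chr9:63744314-63744414 in normal culture and chr9:63744338-63744438 in IL-1β, lay 125 kb downstream of the TSS and 56.5 kb past the end of the transcript. They stood in the stretch of 195 kb between Smad6 and Smad3, a Smad that carries TGF-β signals. Smad3 itself was named in both lists, at rank 517 in normal culture and 973 in IL-1β, by windows in its intron 1 that lay 295 kb from the Smad6 TSS. Neither Smad6 window held a Runx motif. The IL-1β window held 1 SMAD motif (GTCTG) and 1 SOX motif (AACAAT), 28.0 and 37.5 bp from its centre, across and past the end of the normal-culture window.

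Nog encodes Noggin, a secreted protein that binds BMPs and keeps them from their receptors. Its window (Entrez gene 18121) was found in IL-1β with rank 820, at chr11:89068208-89068308, 95.6 kb downstream of the TSS and 93.6 kb past the end of the transcript. It lay in a stretch of 208 kb between Nog and Gm525 and held no Runx motif. The nearest normal-culture window was 61.4 kb away, further from Nog, and was named for Gm525 (rank 805), and this site was in the IL-1β list too (rank 683). Within 200 kb of the Nog start there were thus 2 windows in IL-1β and 1 in normal culture.

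Motifs were counted in the 9 windows of the 6 sites shown above. The Runx motif was present in 5 of the 9 windows and at 3 of the 6 sites (Bmp2, Bmp4 and Bmpr1b), with 6 matches in all, each of them TGTGGT. The motif was in 63.4% of all normal-culture windows and 59.7% of all IL-1β windows, and in 8.15% and 9.4% of windows of the same length 1000 bp to either side. The share at these sites was thus near that of the lists. Among all windows, 14.8% of those in normal culture and 11.8% of those in IL-1β held 2 or more matches. The Bmp2 window was the only one of the 9 with such a pair. Of the 3 sites with a window in both lists, those of Bmp4 and Bmpr1b held the motif and that of Smad6 did not. No 32 bp word of the 9 windows had an exact copy elsewhere in the genome.

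**Figure D3:**
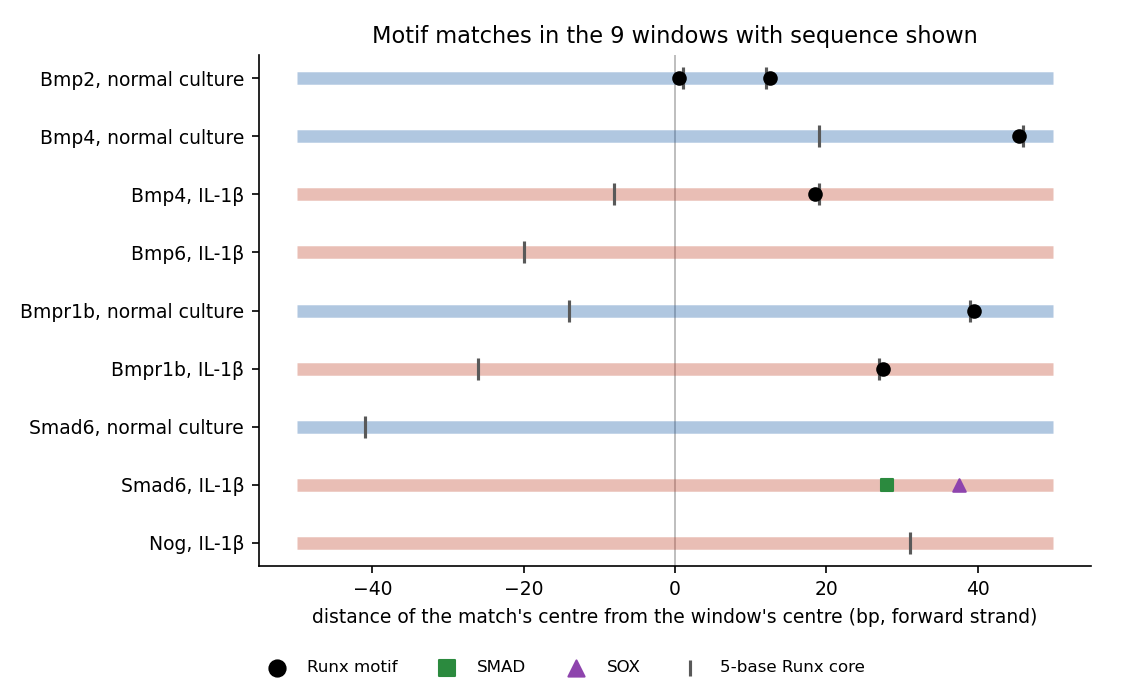
Positions of motif matches in the 9 windows of Bmp2, Bmp4, Bmp6, Bmpr1b, Smad6 and Nog. The x axis is the distance in bp from the centre of the match to the centre of the window on the forward strand, and each bar is 1 window, in normal culture (blue) or IL-1β (red), with the Runx motif as black circles and its 5-base core as grey ticks. Circles are drawn in 5 windows, at 0.5 to 45.5 bp from the centre and all on its right side, and the windows of Bmp6, Smad6 and Nog have none.

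The median distance of the nearest match from the centre was 16.5 bp over the normal-culture windows with a match and 17.5 bp over those in IL-1β. The nearest match of Bmp2 lay nearer than this median and those of Bmp4 and Bmpr1b further out. The windows without the motif at Bmp6 (IL-1β), Smad6 (normal culture) and Nog held TGTGG, the first 5 bases of the motif. This search was added after the sequences had been seen. TGTGG was in 8 of the 9 windows, against 66.8% of normal-culture windows, 64.6% of IL-1β windows and 25.1% and 25.8% of the windows to either side.

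The SMAD motif GTCTG was in 1 of the 9 windows (25.1% of all normal-culture windows and 23.9% of all IL-1β windows). The SOX motif, AACAAT or AACAAAG, was in 1 of 9 (2.8% and 3.5%), and the AP-1 motif TGANTCA was in none of 9 (7.9% and 7.8%). A match says only that these letters are in the window.

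The rest of the pathway was read from a list of 94 genes that includes the 7. As background, 4.11% of the 21900 protein-coding genes of a RefSeq gene table were named in the normal-culture list and 4.04% in the IL-1β list. Of the 87 other genes of the list, the normal-culture list named 7 (8.05%), the IL-1β list 8 (9.2%), and both lists the same 6. The gene list was drawn up with earlier results of these data known. These shares are therefore a description, and their difference from the background was not tested. The 87 genes also have longer stretches of genome around them than the median gene, as given above. Together with the 7 genes, 11 of 94 had a window in normal culture and 13 of 94 one in IL-1β. The 7 genes were chosen because these lists name them, so that they raise these totals by construction. The counts by role below include them too and are not to be set beside the background.

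Of 13 TGF-β, activin and nodal ligand genes, Tgfb2 in IL-1β was the only one named. Of 20 BMP and GDF ligand genes, the normal-culture list named 3 (Bmp2, Bmp4 and Bmp7) and the IL-1β list 1 (Bmp6). By name, none of the BMP ligand genes was in both lists. By position, the Bmp4 site was in both, and a normal-culture window stood 16 bp from the Bmp6 window. Names differed between the lists at 21.1% of all 551 shared windows. Bmp7 was named in normal culture at rank 797, in its intron 2 and 33.9 kb from the TSS.

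Of 17 receptor and co-receptor genes, the same 3 were named in both lists: Bmpr1b, Rgma and Tgfbr3. Rgma, which encodes a BMP co-receptor, ranked 109 in normal culture and 197 in IL-1β at a site 47.1 kb from its TSS. By GENCODE M1 the nearest start of that site was that of Chd2 and the nearest gene body that of Rgma. Rgma had a further IL-1β window at rank 639, in intron 1 and 1.18 kb from the TSS, with 2 Runx motifs. Tgfbr3, which encodes the co-receptor betaglycan, ranked 622 and 529 in its intron 14, 165 kb from the TSS. Of 6 genes for signal-carrying Smads, Smad3 alone was named, in both lists.

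Of 10 genes for intracellular inhibitors, Smad6 and Pmepa1 were named in both lists and Skil in IL-1β. Pmepa1, listed under its older symbol Tmepai, encodes a membrane protein that holds back TGF-β signals and had the highest ranks of the pathway list, 94 in normal culture and 54 in IL-1β. Its windows lay -176 kb from the TSS, and GENCODE M1 placed them nearest to 1700021F07Rik. Skil, a Smad-binding repressor, had its window at rank 795, -0.383 kb from the TSS. Of 17 secreted and membrane inhibitors, Nog was named in IL-1β and Bmper in both lists, at rank 194 in normal culture and 621 in IL-1β, in intron 6. Ltbp1, which encodes a binding protein of latent TGF-β, was named in IL-1β at rank 83 in its intron 3, and the overlapping normal-culture window was named for Ttc27 (rank 212). Of 7 response genes, Id4 was named in both lists (ranks 142 and 124), with another IL-1β window at rank 521 and -391 kb from the TSS.

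Of the 7 genes, Bmp6, Tgfb2 and Nog on the IL-1β side and Bmp2 on the normal-culture side carried a name in 1 list only. Bmp7 and Skil among the others did so too, without an overlapping window in the other list. Bmp4 in normal culture and Ltbp1 in IL-1β also carried their name in 1 list only, although their sites were in both lists. At Bmp6 a normal-culture window named for another gene stood 16 bp away. The share of all named genes that 1 list alone named was not counted. Within 1000 kb of the 7 starts there were 13 windows in normal culture and 16 in IL-1β, whatever gene they were named for. These counts include the 4 and 6 windows by which the genes were chosen. The like count around other genes was not made.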

How the data were processed

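ChIP-seq was performed by the authors on primary chondrocytes of Runx2-FLAG mice. The submitters' processing notes name the build mm9 and the aligner Bowtie2 2.2.2. Peaks were called by the authors with CisGenome against the input of each condition, and each deposited list gives 1000 numbered windows with coordinates and the nearest RefSeq transcript, without counts or scores. The IgG libraries were not analysed here, and the depth is unknown.

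The 7 genes and the gene lists were chosen with earlier results of these data known. The genes named are the 7, those named for their windows, the pathway genes and markers that either list names, and for each shared site the other shared site nearest in rank. Others are neighbours given for orientation. Coordinates were read as counting from 1, which the lists do not state. Distances were taken between window centres and the TSS of the deposited transcript. The sequence at the Tgfb2 site is not reported here. For the other 6 sites sequence was read from mm9 with pysam 0.24.0, and introns are those of the longest coding transcript of GENCODE M1. Of the deposited starts, 92.0% and 91.0% lay within 100 bp of a GENCODE M1 start. Pathway genes were matched by gene ID through a RefSeq table (GRCm38.p6), which held all 94 and gave names alone. Intervals are Wilson 95% (statsmodels 0.14.6), tables were made with Python 3.11.15, pandas 2.3.3 and numpy 2.4.6, and overlap and motif counting were tested on simulated data. Alternatives changed the gene annotation, rank, distance, overlap, motif and coordinate settings.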

Additional observations from a re-analysis of the deposited data

How the results depend on the processing

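Counts of named genes fell with limits on distance and rank. Of the 7 genes, the normal-culture list named 4 and the IL-1β list 5. In normal culture 1 had its window within 100 kb of the TSS and 1 within 50 kb, and in IL-1β 3 had theirs within 50 kb. Of the 94 pathway genes, 11 in normal culture became 7 in the 500 highest-ranked windows, 5 within 100 kb and 5 within 50 kb, and 13 in IL-1β became 8, 8 and 7. Around the 7 starts, 13 and 16 windows within 1000 kb became 5 and 6 within 200 kb, by the construction of that limit. The Bmpr1b site, 41.1 kb downstream of the deposited start, lay at -9.68 kb from the nearest GENCODE M1 start. By the nearest start in GENCODE M1 the normal-culture list named 4 of the 7 genes, with Bmp6 in place of Bmp4. The count of windows with a Runx motif, 5 of 9, was the same with windows widened by 50 bp, with coordinates counting from 0 and with TGTGGC and TGCGGC added, and was 8 with the 5-base core TGTGG, a setting chosen after seeing the data. The count of shared sites was 3 at an overlap of at least 50 bp and among the 500 highest-ranked windows of both lists. No paired analysis was possible because each group has 1 library and no result comes from a test. Without replicates, counts or peak heights, the error of a rank and the absence of a site from a list cannot be judged.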
